A study of Macaca mulatta with 24 samples.

Results

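Frontal cortex of the monkey runs from granular prefrontal cortex, with a clear layer 4, through premotor cortex to agranular primary motor cortex, where layer 5 holds the giant projection neurons. Premotor cortex prepares and selects movements, projects both to primary motor cortex and to the spinal cord, and is often described as a step between the prefrontal and the primary motor field. A transcript that follows this order has a premotor level about midway between its prefrontal and its primary motor level. The transcripts described here are those measured away from that midpoint.

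The comparison used all 24 of the 24 arrays of the series, 6 from each of 4 areas of rhesus monkey (Macaca mulatta) neocortex. The areas were primary motor cortex (M1, its forelimb region, found by the bend of the central sulcus), the dorsal and the ventral part of premotor cortex (PMd and PMv, along the arcuate sulcus) and prefrontal area 46 (A46, from the banks of the principal sulcus). Each area was taken from the left and right hemisphere of the same 3 adolescent animals, a male of 2.7 years (animal 1), a male of 2.6 years (animal 2) and a female of 2.7 years (animal 3). All 3 had lived in group cages with no experimental treatment, and all were given a pentobarbital overdose and perfused with cold heparinised saline before dissection. Both hemispheres were averaged, which gave 12 means on the log2 scale, 3 per area. The premotor departure of a probe set (the group of oligonucleotides that reports 1 transcript) was taken within each animal as the mean of PMd and PMv minus the mean of M1 and A46, so that 0 is the midpoint. Of 52766 probe sets that were not controls, 26383 passed the intensity filter and were tested, and 10043 genes were represented by the probe set with the highest mean.

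The arrays were alike in overall level. Median intensity lay between 47.9 and 51.6, and the correlation between arrays over all probe sets was 0.977 to 0.997. Transcripts of cortical neurons were present in all 4 areas, with mean log2 intensities of 10.99 to 11.15 for SLC17A7, the vesicular glutamate transporter of cortical projection neurons, and 11.01 to 11.27 for GAD1, the GABA-synthesising enzyme. The area labels had their usual markers: RORB and CUX2, genes of layer 4 and the upper layers, were highest in A46 (7.53 and 9.21) and lowest in M1 (6.93 and 8.52), and NEFH, the heavy neurofilament subunit found in large axons, ran the other way (8.98 in A46 and 11.22 in M1). The left PMv arrays of animals 1 and 2 stood furthest from the others, with median correlations of 0.984 and 0.988 and the narrowest spread of log2 values (1.79 and 1.83, against up to 1.95). Both enter the PMv means of their animals, so values are also given without them, when the right array of that animal stands alone for PMv.

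Departures from the midpoint were small and few beside the gradient. Of the sum of squares between the 4 areas over all tested probe sets, M1 minus A46 held 67.5%, the premotor departure 18.1% and PMd minus PMv 14.4%. These amounted to 5.21, 1.39 and 1.11 times the residual variance. The median size of a departure was 0.05 on the log2 scale and that of M1 minus A46 was 0.10, while a departure had a typical 95% confidence interval of 0.12 to either side. In limma, 8 of 26383 probe sets (0.0303%) passed an adjusted p of 0.05 for a departure, 7 with premotor cortex higher (0.0265%) and 1 with it lower (0.00379%). For M1 minus A46 it was 3391 (12.9%). With arrays centred on their medians, the 8 became 2, both higher. At an unadjusted p under 0.05 the balance was the opposite, with 524 probe sets higher (1.99%) and 1251 lower (4.74%), and after quantile normalization these were 1101 and 1234. Counted by gene, 2 of 10043 passed (0.0199%), DIAPH3 and KLK5.

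The number of calls moved with each animal left out, while the departures of the 8 stayed about as large. Without animal 1, 0 probe sets passed in limma (368 higher and 268 lower at an unadjusted p under 0.05), and the adjusted p of the 8 lay between 0.0719 and 0.637, with departures of 0.35 to 0.60 for the 7 higher ones and -0.37 for CD53. Without animal 2, 0 passed (112 higher and 159 lower unadjusted), with adjusted p from 0.161 to 0.9998 and departures of 0.30 to 0.72 and -0.53. Without animal 3, the only female, 2003 passed, 318 higher and 1685 lower, the 8 among them. The 8 themselves had the same direction in every animal and in both hemispheres, 6 of 6 departures each. That was so for 4.48% of all tested probe sets. The 8 were picked by a test on these same arrays, which favours such agreement, so it is no added evidence. Leaving out the left PMv arrays of animals 1 and 2 kept the same 8 calls.

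**Figure D1:**
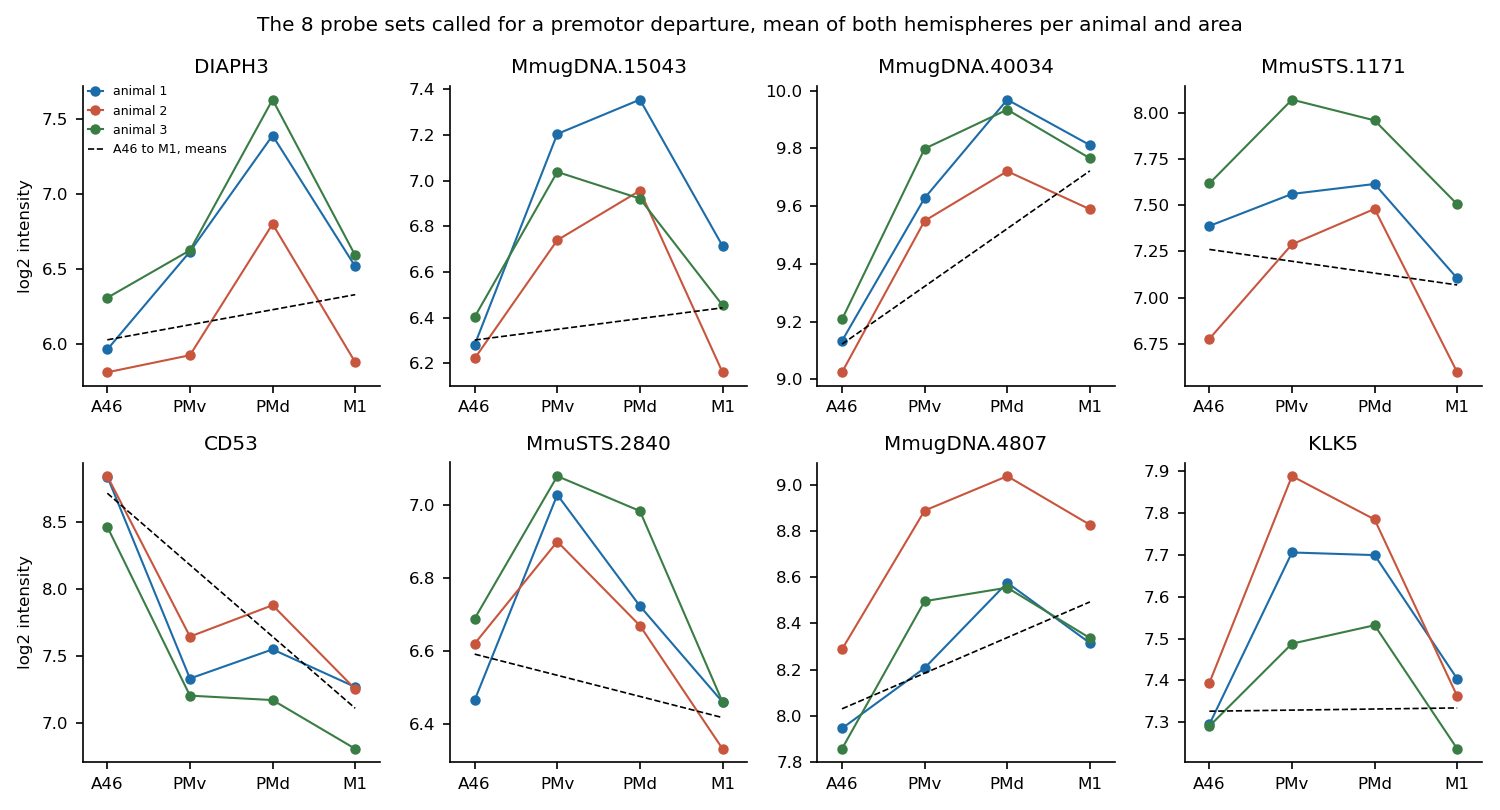
Log2 intensity of the 8 probe sets called for a premotor departure, in A46, PMv, PMd and M1, with 1 coloured line per animal (each point the mean of both hemispheres) and a dashed line from the A46 mean to the M1 mean. Every panel but that of CD53 has a premotor mean above both ends, and the lines of the 3 animals run in parallel more than they share a level.

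DIAPH3, a formin that nucleates and elongates actin filaments, had the departure with the smallest p, and most of it came from PMd. Its log2 intensity in animals 1, 2 and 3 was 7.39, 6.80 and 7.63 in PMd and 6.62, 5.92 and 6.62 in PMv. In M1 it was 6.52, 5.88 and 6.59, and in A46 5.96, 5.81 and 6.31. PMd was the highest area in each animal, and PMv and M1 were nearly equal. Across animals PMd of animal 2 lay close to PMv of the other two, so the areas separate within animals more clearly than between them. The departure of both premotor areas together was 0.65 (SE 0.07, 1.57-fold, limma adjusted p = 0.00549, in 3 of 3 animals). PMd alone lay 1.10 above the midpoint (adjusted p = 0.000176) and PMv 0.21 (adjusted p = 0.453). PMd exceeded PMv by 0.89 (SE 0.10, adjusted p = 0.0119), which did not pass without animal 2 (adjusted p = 0.508). Without animal 1 or animal 2 the joint departure was 0.60 and 0.72, with adjusted p of 0.0719 and 0.161, while PMd alone still passed (adjusted p = 0.00291 and 0.0137). M1 minus A46 was 0.30 (adjusted p = 0.0563). DIAPH3 had 1 tested probe set.

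MmugDNA.15043.1.S1_at, which has no gene symbol, had a departure of the same size shared by both premotor areas. It measured 7.35, 6.96 and 6.92 in PMd and 7.20, 6.74 and 7.04 in PMv of animals 1 to 3. M1 measured 6.71, 6.16 and 6.45, and A46 6.28, 6.22 and 6.40. All 6 premotor means lay above all 6 means of the outer areas. The departure was 0.66 (SE 0.07, 1.58-fold, limma adjusted p = 0.00549), with 0.70 for PMd (adjusted p = 0.0179) and 0.62 for PMv (adjusted p = 0.0825). PMd and PMv differed by 0.08 (SE 0.10, adjusted p = 0.9). The joint departure was 0.60 without animal 1 and 0.67 without animal 2, with adjusted p of 0.0719 and 0.524.

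KLK5, a secreted serine protease of the kallikrein family best known from skin, was the other named gene. In animals 1 to 3 it measured 7.70, 7.79 and 7.53 in PMd, and 7.71, 7.89 and 7.49 in PMv. M1 gave 7.40, 7.36 and 7.24, and A46 7.29, 7.39 and 7.29. Again each premotor mean was above every M1 and A46 mean, and M1 and A46 were level with each other (difference 0.01, SE 0.07). The departure was 0.35 (SE 0.05, 1.28-fold, limma adjusted p = 0.0364), equal in PMd (0.34) and PMv (0.36). Without animal 1 or animal 2 it was 0.35 and 0.30, and neither passed (adjusted p = 0.637 and 0.9998). A second KLK5 probe set had a departure of 0.23 in the same direction that did not pass (adjusted p = 0.555).

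The kallikrein genes lie next to each other in the RefSeq annotation (14 genes on 1 chromosome), and after the values of KLK5 had been seen the other measured members were looked up. KLK7, its close relative in skin, was at 0.18 (SE 0.05, unadjusted p = 0.0028, adjusted p = 0.726), above the midpoint in 3 of 3 animals. KLK8, or neuropsin, a protease that acts at synapses, had departures of 0.08 and 0.07 in its 2 probe sets, and KLK10 of 0.07. KLK4 and KLK15 were at -0.03 each. KLK6, a protease of oligodendrocytes, was a gradient gene: it rose from 6.62 in A46 to 8.40 in M1 (1.78, adjusted p = 4.19e-05), with a departure of 0.17 (SE 0.12). KLK5 was the only one of these 7 kallikreins with a probe set past the threshold.

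Of the other unnamed probe sets, 2 had higher means in both premotor areas than in M1 and A46, though neither passed the peak test given below. The other 2 rose from A46 to a premotor level at or above that of M1. MmuSTS.1171.1.S1_at was at 7.62, 7.48 and 7.96 in PMd and 7.56, 7.29 and 8.07 in PMv of animals 1 to 3, against 7.10, 6.59 and 7.51 in M1 and 7.39, 6.78 and 7.62 in A46. Its animals differed by more than its areas, and the departure within them was 0.50 (SE 0.06, limma adjusted p = 0.0231). MmuSTS.2840.1.S1_at was highest in PMv, with 7.03, 6.90 and 7.08, and had 6.72, 6.67 and 6.98 in PMd. Its levels were 6.46, 6.33 and 6.46 in M1 and 6.46, 6.62 and 6.69 in A46. PMv lay above every M1 and A46 mean, and PMd of animal 2 was level with A46. The departure of this probe set was 0.39 (SE 0.06, adjusted p = 0.0332), 0.50 for PMv and 0.29 for PMd.

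The remaining pair, MmugDNA.40034.1.S1_at and MmugDNA.4807.1.S1_at, differed between M1 and A46 as well (0.60 and 0.46, limma adjusted p = 5.11e-05 and 0.00137). The first went from a mean of 9.12 in A46 to 9.66 in PMv, 9.87 in PMd and 9.72 in M1, a premotor departure of 0.34 (SE 0.04, adjusted p = 0.0179). The premotor level was at 107% of the way from A46 to M1, so this transcript reached its M1 level already in premotor cortex. The second went from 8.03 in A46 to 8.53 in PMv, 8.72 in PMd and 8.49 in M1, a departure of 0.36 (SE 0.05, adjusted p = 0.0364). PMd lay above both ends in each animal for both probe sets, while PMv lay below M1 in animals 1 and 2 for the first and in animal 1 for the second. Without an intensity trend in the model the second had an adjusted p of 0.0595.

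The single lower call was a probe set of CD53, a tetraspanin of leukocytes and microglia, and it was a step and not a dip. MmuSTS.3532.1.S1_at measured 8.84, 8.84 and 8.46 in A46 of animals 1 to 3. PMd measured 7.55, 7.88 and 7.17, PMv 7.33, 7.64 and 7.20, and M1 7.27, 7.25 and 6.81. A46 was above every other mean, and premotor cortex lay 78.0% of the way to M1, between both ends in each animal. The departure was -0.45 (SE 0.06, limma adjusted p = 0.0268), beside an M1 minus A46 of -1.61 (adjusted p = 4.58e-07). In these pieces of tissue, fewer cells of a type and less RNA per cell cannot be told apart.

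The other CD53 probe sets and the other microglial genes gave different values. The brightest CD53 probe set had a departure of -0.24 (SE 0.05, limma adjusted p = 0.555) at 77.1% of the way, and the remaining one had 0.01 (adjusted p = 0.983). Of 13 measured microglia and macrophage markers 11 were above the midpoint and 2 below, CD53 and CD68, with a median of 0.08 and 0 passing. Their summed intensity per animal was 2857 to 3009 in A46, 2792 to 2929 in PMd, 2735 to 3036 in PMv and 2608 to 2869 in M1. The part of these cells in the CD53 value was not tested.

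**Figure D2:**
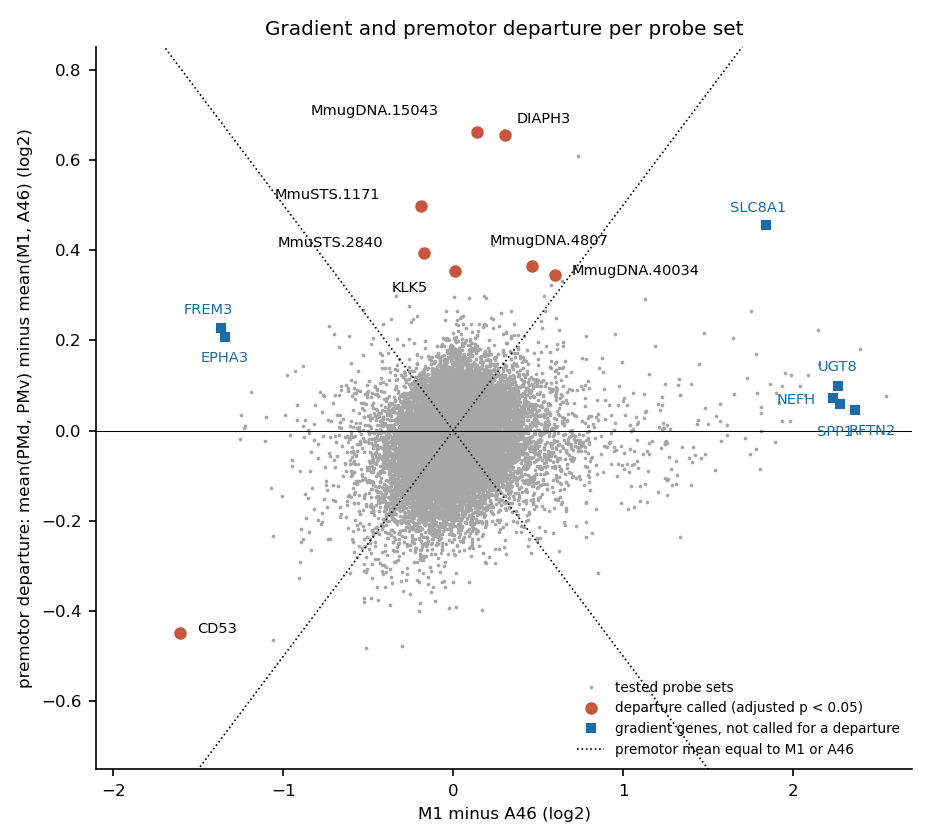
Premotor departure (vertical, log2) against M1 minus A46 (horizontal, log2) for the 26383 tested probe sets, with the 8 called departures in red and 7 genes of the M1 to A46 gradient as blue squares; above or below both dotted lines the premotor mean lies outside both end areas. Called departures sit at M1 minus A46 differences under 0.7, apart from CD53 at -1.61. Of the squares, NEFH, SPP1, RFTN2 and UGT8 lie at 0.05 to 0.10 on the vertical axis. EPHA3 and FREM3 lie at 0.21 and 0.23, and SLC8A1 at 0.46.

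A departure is not yet a peak, so premotor cortex was also required to differ from both ends in the same direction, with the larger of both p-values adjusted over all probe sets. On this test 0 probe sets (0%) passed in limma, with 37 peaks and 54 dips at an unadjusted p under 0.05 (0.345% of those tested). The smallest adjusted p was 0.341, for MmugDNA.15043.1.S1_at, followed by 0.538 for DIAPH3. When premotor cortex was compared with M1 and with A46 separately, 6 probe sets were above both with each adjusted p under 0.05, and 0 were below both. Premotor cortex differed from M1 in 570 (2.16%) and from A46 in 884 (3.35%). The 6 above both were DIAPH3, KLK5, MmugDNA.15043.1.S1_at, MmuSTS.1171.1.S1_at, MmuSTS.2840.1.S1_at and MmugDNA.1963.1.S1_at. Each adjustment covers 1 comparison, so this count does not limit the error rate for both at once, as the joint test does. On that test none of the 6 passed. DIAPH3 was 0.50 above M1 and 0.80 above A46 (adjusted p = 0.00956 and 0.000527), and KLK5 was 0.35 and 0.36 above (adjusted p = 0.0145 and 0.00962). MmugDNA.1963.1.S1_at was 0.29 and 0.24 above (adjusted p = 0.0248 and 0.0405), and its departure of 0.26 did not pass (adjusted p = 0.214). Without regard to any test, the premotor mean lay between M1 and A46 for 55.8% of genes, above both for 19.3% and below both for 25%.

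The named genes next in rank on the higher side were a mixed group, and none of their departures passed. FKBP1B, which binds and steadies calcium release channels, had means of 9.66 in A46, 10.05 in PMd, 9.99 in PMv and 9.95 in M1 (departure 0.21, SE 0.04, limma adjusted p = 0.354). SYT17, a synaptotagmin relative found in upper cortical layers, had its highest mean in PMv (9.06, against 8.83 in PMd, 8.80 in A46 and 8.54 in M1; departure 0.28, SE 0.05, adjusted p = 0.354). Its PMv value was above A46 and M1 in each animal, while PMd of animal 2 was below A46. MEPE, a phosphoglycoprotein of bone matrix, had 7.51 in PMd and 7.38 in PMv beside 7.20 in M1 and 7.11 in A46 (departure 0.29, SE 0.06, adjusted p = 0.555). SPHKAP, an anchor for protein kinase A, was at 0.24 (adjusted p = 0.555), CYYR1 at 0.23 (adjusted p = 0.45) and the uncharacterised LOC713582 at 0.25 (adjusted p = 0.583). Each of these 6 had the same direction in 3 of 3 animals, as had 25.4% of all genes. That agreement was a condition for naming genes by their departure p, so it is no added evidence.

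On the lower side some named genes were steps, with a premotor level between A46 and M1 but near M1, and others were below both ends. None of them passed. Among the steps, IGFBP2, which binds insulin-like growth factors, gave 8.83, 8.78 and 8.70 in A46 of animals 1 to 3. In the other areas it ranged from 8.08 to 8.36, and the premotor mean was 99.1% of the way to M1. The departure was -0.26 (SE 0.04, limma adjusted p = 0.163). From the means of both hemispheres it was -0.25, -0.26 and -0.25 in animals 1 to 3. Left arrays alone gave -0.44, -0.38 and -0.23, and right arrays alone -0.07, -0.15 and -0.27. The near identity of the means was thus not seen in either hemisphere. TSHZ3, a zinc-finger transcription factor, and ETV6, a repressor of the ETS family, were at 89.0% and 87.5% of the way, with departures of -0.22 each (adjusted p = 0.712 and 0.715).

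Of the genes with a premotor mean below both ends, RBM3, a cold-inducible RNA-binding protein, had the lowest departure of all tested probe sets. It is not in the rule for named genes and was chosen after its values were seen. The probe set MmugDNA.14137.1.S1_at measured 6.83, 6.63 and 6.19 in PMd and 6.53, 6.40 and 6.46 in PMv of animals 1 to 3, against 7.10, 6.75 and 6.34 in M1 and 7.77, 7.22 and 6.73 in A46. The premotor mean was the lowest in each animal, narrowly so in animal 3, where PMv lay above M1. Its departure was -0.48 (SE 0.09, limma adjusted p = 0.354), with -0.76, -0.47 and -0.21 in the 3 animals and -0.45, -0.20 and -0.21 from right arrays alone. Premotor cortex was 0.74 below A46 (adjusted p = 0.00535), and its difference from M1 was -0.23 (SE 0.11, adjusted p = 0.46). A second RBM3 probe set had a departure of -0.25 (adjusted p = 0.726).

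The named genes with this shape had smaller departures than RBM3. SEMA3C, a secreted semaphorin that steers axons, was lowest in PMv, with a mean of 7.75 against 8.11 in PMd, 8.04 in M1 and 8.56 in A46 (departure -0.37, SE 0.08, limma adjusted p = 0.555). Animal 3 gave less than the others there, -0.15 against -0.54 and -0.42. CCN2, a secreted matrix protein expressed by deep-layer and subplate neurons, had means of 7.95 in A46, 7.67 in PMd, 7.68 in PMv and 7.91 in M1, a departure of -0.25 (SE 0.06, limma adjusted p = 0.715). Its premotor mean was below both ends in each animal, though in animal 3 PMv equalled M1 and A46 at 7.68. LOC699439, CNBP, a nucleic acid binding protein, and TYMP, thymidine phosphorylase, had departures of -0.20, -0.20 and -0.17 (adjusted p = 0.726 each). TP53BP2, a p53-binding protein, was at -0.27 (adjusted p = 0.715) and ST8SIA1, the enzyme that makes the ganglioside GD3, at -0.28 (adjusted p = 0.726).

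**Figure D3:**
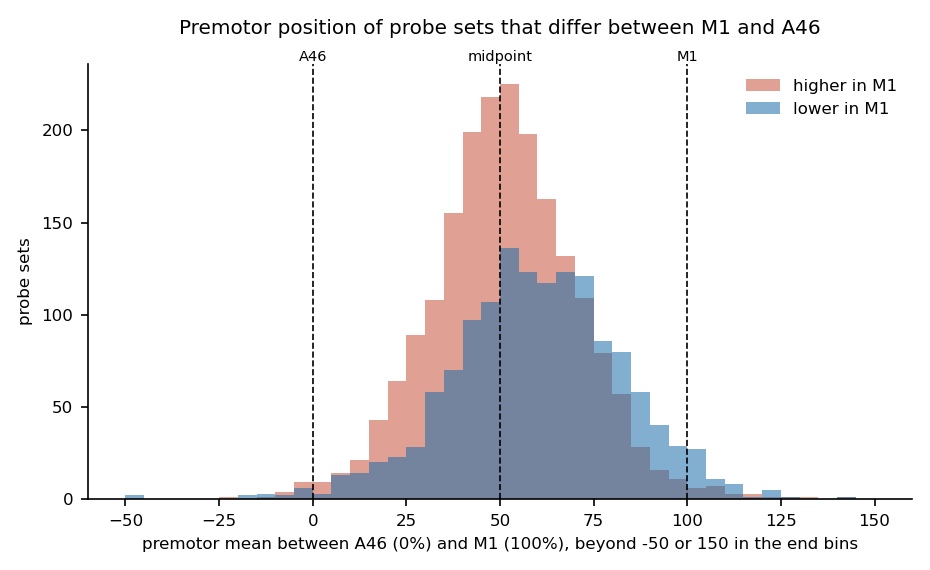
Number of probe sets by the position of their premotor mean between A46 (0%) and M1 (100%), for the 3391 probe sets that passed for M1 minus A46, split into 1976 higher and 1415 lower in M1. Both sets centre near the midpoint, at medians of 51.3% and 60.0%, and few lie outside the dashed lines at A46 and M1.

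Genes of the gradient itself were close to additive. Among the 3391 probe sets that differed between M1 and A46, the premotor mean lay at a median of 54.3% of the way from A46 to M1 (middle 50% of probe sets, 41.5 to 68.9%), and 96.8% lay between both ends. Those higher in M1 had a median of 51.3% and those lower in M1 60.0%. The 146 that differed at least 2-fold were all between, with a median of 50.8%. At that difference a premotor mean outside both ends needs a departure above 0.5 in size, found in 3 of all tested probe sets (0.0114%). A set chosen for its M1 minus A46 difference thus lies between both ends largely by its choice. PMd stood at a median of 58.5% and PMv at 50.3%. A departure at an unadjusted p under 0.05 was found in 375 of the 3391 (11.1%, against 6.73% of all tested), with premotor cortex on the M1 side in 263 and on the A46 side in 112. These contrasts share arrays, and the tests of the 375 were not adjusted.

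The strongest gradient genes showed how near the midpoint premotor cortex could be. NEFH gave 10.72, 10.28 and 10.20 in PMd and 10.07, 9.89 and 9.89 in PMv, against 11.48, 10.99 and 11.20 in M1 and 9.24, 8.73 and 8.99 in A46. Its areas were fully separated, in the order A46, PMv, PMd, M1, and the joint premotor departure was 0.07 (95% interval -0.05 to 0.19). SPP1, which encodes osteopontin, had a departure of 0.06 (-0.15 to 0.26), and RFTN2, a lipid raft protein, of 0.05 (-0.14 to 0.23). UGT8, which makes the myelin lipid galactocerebroside, was at 0.10 (-0.21 to 0.41), and MBP, the myelin basic protein, at 0.19 (-0.01 to 0.39). Second, dimmer probe sets gave 0.01 for MBP and -0.09 for UGT8, the latter below the midpoint in 3 of 3 animals. The position of these 5 genes ranged over the animals from 47.8 to 60.0% for NEFH and from 43.4 to 80.9% for MBP. The size seen in DIAPH3, 0.65, lies outside each of these intervals.

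SLC8A1, the plasma membrane sodium-calcium exchanger, had a larger departure than these 5, and it rested on 2 animals. It gave 9.54, 8.93 and 7.81 in PMd and 8.93, 8.75 and 7.73 in PMv of animals 1 to 3. M1 gave 9.70, 9.31 and 8.23, and A46 7.37, 6.997 and 7.35. In animals 1 and 2 premotor cortex was near M1, while in animal 3 it was at the midpoint. The departures were 0.71, 0.69 and -0.02 (together 0.46, SE 0.17, limma adjusted p = 0.726). Without animal 3 it was 0.70 (adjusted p = 0.000374). A second, dimmer SLC8A1 probe set did not show it, with a departure of -0.06 (SE 0.10, adjusted p = 0.894), below the midpoint in 3 of 3 animals.

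Some genes that were lower in M1 than in A46 had a premotor level nearer to A46. RBP4, a retinol carrier, and PNMA5 are both known as genes of primate association cortex. RBP4 measured 8.48, 8.59 and 8.58 in PMd and 8.49, 8.50 and 8.59 in PMv, near 8.63, 8.61 and 8.78 in A46 and above 8.10, 7.94 and 7.78 in M1. Its premotor mean was 18.4% of the way to M1, and its departure 0.23 (SE 0.06, limma adjusted p = 0.726). A second, dimmer RBP4 probe set had a departure of 0.14 (adjusted p = 0.730), above the midpoint in 2 of 3 animals. PNMA5 was 10.3% of the way (departure 0.19, SE 0.06, adjusted p = 0.726). C1QL2, a secreted C1q-like protein of synapses, was at 6.7% (0.20, SE 0.05, adjusted p = 0.726) and EFNB3, an ephrin ligand, at 9.97% (0.17, SE 0.04, adjusted p = 0.726). A second, dimmer EFNB3 probe set had a departure of 0.04, above the midpoint in 1 of 3 animals. PLAC9 was at the A46 level, with a position of -0.2% (0.27, SE 0.06, adjusted p = 0.555). EPHA3, an ephrin receptor, and FREM3, an extracellular matrix protein, fell from A46 to M1 by 1.34 and 1.37 and stood at 34.5% and 33.4%, with departures of 0.21 and 0.23 (adjusted p = 0.726 each). Premotor cortex was above M1 in all 7 (adjusted p from 0.000235 to 0.0107). It was 0.46 below A46 in both EPHA3 and FREM3 (adjusted p = 0.00551 and 0.0187), and in the other 5 genes its difference from A46 ran from -0.13 to 0.00 with adjusted p of 0.334 or more. Counted by the brightest probe set of each gene, all 7 were above the midpoint in 3 of 3 animals. For PLAC9 that was a condition of being named. Of the 7 departures 0 passed. RBP4 and PNMA5 were the highest of 6 measured association cortex genes, of which 4 were above the midpoint (median departure 0.03). SLIT2 and SLIT1, also lower in M1, stood at 80.4% and 59.5% of the way, with departures of -0.09 and -0.05. TTBK1 and SLIT3, at 0.02 and 0.05, did not pass for M1 minus A46.

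Layer markers did not share a direction. CUX2 was at 38.5% of the way from A46 to M1 (departure 0.08, 95% interval -0.06 to 0.22), RORB at 74.5% (-0.15, -0.33 to 0.03). FEZF2, which specifies subcortical projection neurons, was at 62.5% (0.08, -0.06 to 0.21) and CRYM, a thyroid hormone binding protein of deep layers, at 59.4% (-0.07, -0.18 to 0.05). GAP43, of growing axons, had a departure of -0.03 (-0.17 to 0.11). A second, dimmer GAP43 probe set was at 0.07, above the midpoint in 3 of 3 animals. PVALB, of fast-spiking interneurons, was at 43.4% (-0.08, -0.24 to 0.07).

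**Figure D4:**
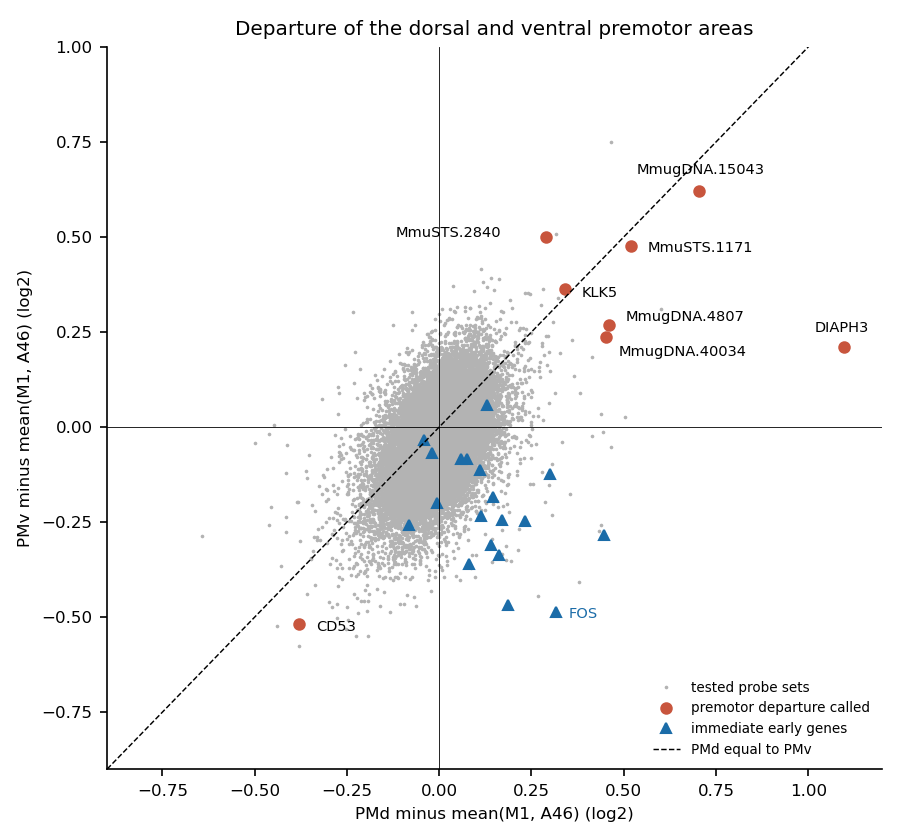
Departure of PMd (horizontal) and of PMv (vertical) from the midpoint of M1 and A46, log2, for all tested probe sets, with the 8 called probe sets in red, 19 immediate early genes as blue triangles and a dashed line where both areas are equal. DIAPH3 lies far to the right at 1.10 and 0.21, and most immediate early genes lie below the dashed line, FOS at 0.32 and -0.49.

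A mean of both premotor areas hides departures of opposite sign, so PMd and PMv were also taken apart. PMd departed from the midpoint in 3 probe sets (0.0114%; 835, or 3.16%, unadjusted), DIAPH3, MmugDNA.15043.1.S1_at and MmugDNA.40034.1.S1_at. PMv departed in 0 (0%), although 2831 (10.7%) had an unadjusted p under 0.05 in limma, 2209 of them lower (8.37%). Without animal 3, 5216 passed for PMv and 33 for PMd. Without animal 1 or animal 2, PMd kept DIAPH3 alone. PMd and PMv differed in 2 probe sets (0.00758%), DIAPH3 and FOS.

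FOS, an immediate early gene whose transcript appears within minutes of neuronal activity, was near its A46 level in PMd and lower in PMv. In animals 1, 2 and 3 it measured 7.71, 8.17 and 7.65 in PMd and 6.79, 7.37 and 6.96 in PMv. M1 was 7.37, 7.35 and 7.15, and A46 7.72, 8.06 and 7.50. Every PMd mean exceeded every PMv mean. PMd minus PMv was 0.80 (SE 0.10, limma adjusted p = 0.0307), while the joint premotor departure was -0.08 (SE 0.07, adjusted p = 0.771), because PMd stood 0.32 above the midpoint and PMv 0.49 below it. Without the left PMv arrays of animals 1 and 2 the difference was 0.68 (adjusted p = 0.0107). Without animal 1 or animal 2 it did not pass (0.74 and 0.80, adjusted p = 0.205 and 0.949), nor with either hemisphere alone (adjusted p = 0.242 on the left and 0.0902 on the right).

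Other immediate early genes had the same order without passing. Of 19 measured, 18 were higher in PMd than in PMv, with a median difference of 0.35. Among all genes the share was 67.6%, with a median of 0.04. Those at an unadjusted p under 0.05 numbered 14, all higher in PMd, and over all genes 5.25% were so. After quantile normalization 49.7% of all genes and 18 of these 19 were higher in PMd. EGR2 and NPAS4, both activity-dependent transcription factors, had differences of 0.66 and 0.73 (limma adjusted p = 0.257 and 0.280), DUSP1, a phosphatase that switches off MAP kinases, 0.50 (adjusted p = 0.257) and ARC, a regulator of synaptic strength, 0.48 (adjusted p = 0.257). NR4A2 was the exception at -0.01. By animal the count was 18, 19 and 16 of 19, on left arrays 18 and on right arrays 18, and without the left PMv arrays of animals 1 and 2 it was 18 with a median of 0.29. Over both premotor areas together 16 of 19 were below the midpoint (median -0.04, 0 passing), 13 without those arrays and 7 on right arrays alone. Of all 10043 genes 5531 were below it, 4758 without those arrays and 4336 on right arrays alone.

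The lists of genes by function and cell type were examined for a shared premotor departure. In 24 lists, 0 members passed. List medians ran from -0.06 for astrocyte markers to 0.08 for microglia and macrophage markers, against -0.01 for all genes, of which 44.9% were above the midpoint. Of the 13 astrocyte markers 12 were below it, among them GJB6, a gap junction protein of astrocytes (-0.20, SE 0.06), and GLUL, glutamine synthetase (-0.10, SE 0.05). ALDH1L1 was the one above, at 0.13 (SE 0.05). The astrocyte count was 12 of 13 below under each of 3 other scalings and 12 without the left PMv arrays of animals 1 and 2, where the median was -0.03. The astrocyte median was -0.12 and -0.13 in animals 1 and 2 and 0.07 in animal 3. The microglial median was above 0 in each animal, at 0.13, 0.02 and 0.07, with 0.17 for TYROBP and 0.15 for C1QB as its highest (adjusted p = 0.726 each).

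Oligodendrocyte genes followed the gradient. Of 11 measured 9 passed for M1 minus A46 (14.7% of all genes did), with a median position of 52.9% (42.5 to 65.8%). Departures ran from -0.10 for ENPP2 to 0.19 for MBP. Above the midpoint were 8, 8 and 1 of the 11 in animals 1 to 3 (list medians 0.11, 0.03 and -0.12). On left arrays 9 were above it and on right arrays 2. Of all genes 36.9% were above it on left arrays and 56.8% on right arrays. The list of neurofilament and large projection neuron genes had 4 measured members, NEFH, SPP1, VAMP1, which encodes a synaptic vesicle protein, and PVALB, which is also an interneuron gene. All 4 passed for M1 minus A46 and stood at 43.4 to 53.2%. They were also all higher in PMd than in PMv, by a median of 0.34, led by PVALB (0.53) and NEFH (0.45), with adjusted p of 0.297 and 0.257. Among all genes 67.6% were higher in PMd, with a median difference of 0.04. Among 24 genes of mitochondrial respiration, 15 were below the midpoint and 9 above, with a median of -0.02, and after quantile normalization 15 were above. All 24 were higher in PMd than in PMv, by a median of 0.12. Without the left PMv arrays of animals 1 and 2 these were 22 of 24 and 0.04, and after quantile normalization 21 and 0.05. For all genes the share higher in PMd was 57.7% without those arrays (median 0.01) and 49.7% after quantile normalization (median -0.0006).

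**Figure D5:**
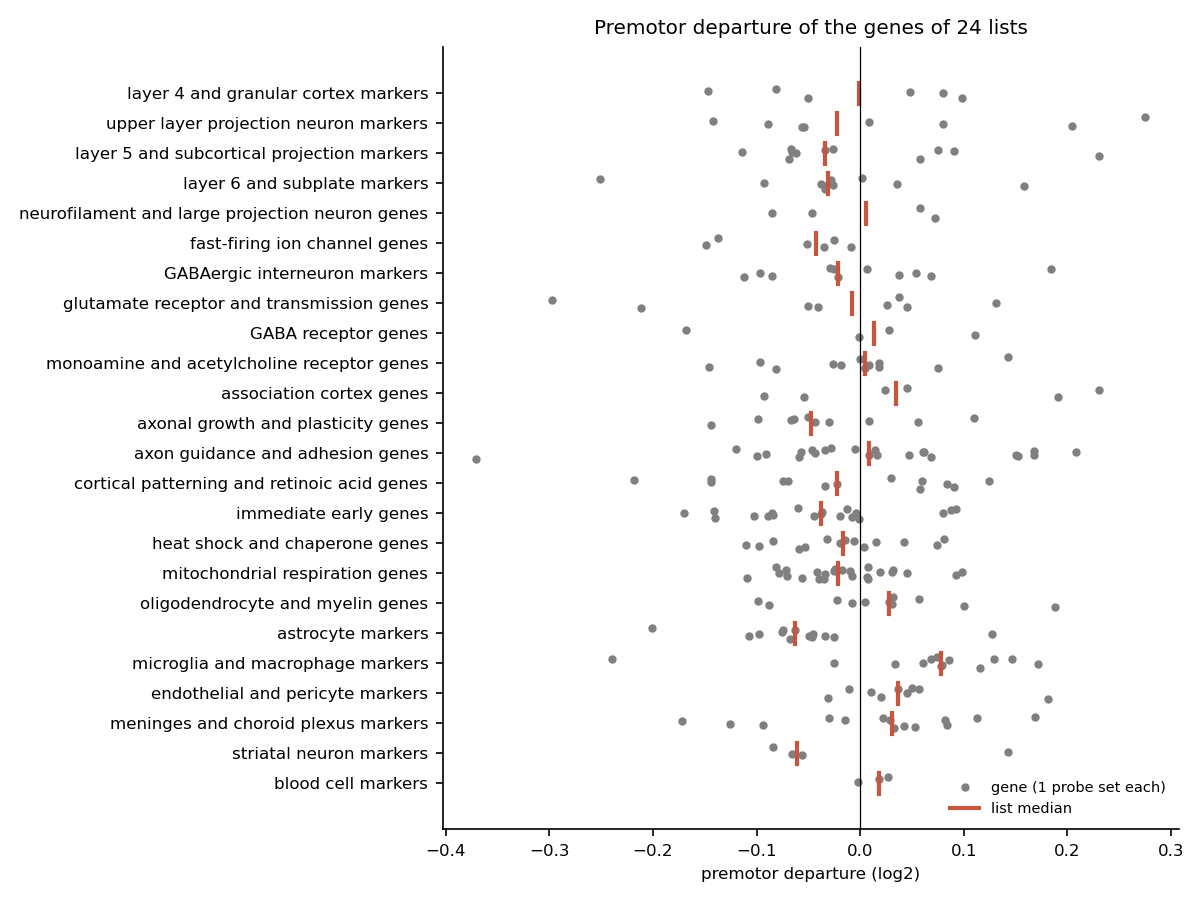
Premotor departure (log2) of each measured gene in 24 lists, 1 grey point per gene placed by its tested probe set with the highest mean, and the list median as a red bar. Medians lie within 0.08 of the midpoint, and SEMA3C at -0.37 in the axon guidance list is the lowest point.

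Markers of tissue outside the cortex differed in direction between lists and between animals. Of 14 meningeal and choroid plexus markers 9 were above the midpoint (median 0.03), of 4 striatal markers 1 was (median -0.06), and of 3 blood cell genes 2 were (median 0.02). The 14 include KLK6, given above as a gradient gene and a protease of oligodendrocytes, and its departure of 0.17 was their highest. The counts of this list are therefore not of tissue outside the cortex alone. The meningeal and choroid plexus markers were above it in 13 of 14 cases on right arrays (median 0.13) and in 4 of 14 on left arrays (median -0.05). Of all genes 56.8% were above it on right arrays and 36.9% on left arrays. By animal these markers were above it in 11, 8 and 2 of 14 cases, against 40.3%, 49.6% and 52.7% of all genes. Their part in the departures of other genes was not tested. HBB, the beta globin gene, had a departure within 0.01 of the midpoint (95% interval -0.11 to 0.11). Endothelial and pericyte markers were above it in 7 of 9 cases (median 0.04), highest for CDH5, a cadherin of vessel walls, at 0.18 (SE 0.06, limma adjusted p = 0.726). A second, dimmer CDH5 probe set was at -0.01. Among upper layer markers 4 of 8 were above, and among axon guidance and adhesion genes 12 of 23.

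The animals shared the gradient but not the departure. Over all tested probe sets, M1 minus A46 correlated between animals at 0.734 (1 and 2), 0.493 (1 and 3) and 0.680 (2 and 3). The premotor departure correlated at 0.543 between animals 1 and 2, but at -0.305 and -0.114 between animal 3 and each of them. These are correlations across probe sets, which are not independent, within arrays shared by the whole set. Between the left and right hemisphere of 1 animal the departure correlated at 0.446, 0.267 and 0.027. From left arrays alone animals 1 and 3 gave -0.470, and from right arrays alone 0.017. Without the left PMv arrays of animals 1 and 2 the 3 values were 0.390, -0.263 and -0.024. Of the 2003 probe sets that passed without animal 3, 607 had the same sign in animal 3. The matching share of all tested probe sets was not counted. With correlations of -0.305 and -0.114 over all of them, the 607 cannot be read as particular to the 2003. Since animal 3 was the only female, sex and animal cannot be told apart.

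Array properties differed with the premotor areas in the same animals. The spread of log2 values had departures of -0.05, -0.02 and 0.02 in animals 1 to 3, and the 3' to 5' ratio of the actin control probes, a measure of RNA integrity, of 0.13, 0.02 and -0.04 on the log2 scale. Their part in the departures was not tested beyond a fit with each as a covariate, where 11 probe sets passed with the spread and 2 with the actin ratio, DIAPH3 and MmugDNA.15043.1.S1_at. A test of the left against the right departure found 0 probe sets in limma (1078 at an unadjusted p under 0.05).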

How the data were processed

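Each of the 24 arrays is a 1-colour Affymetrix Rhesus array of biotin-labelled total RNA, per the labels. The deposited values are linear intensity values, 1 per probe set, summarised with RMA, as the submitters' processing notes name it (no version given, nor which arrays were normalised jointly). This method hides a shift of all transcripts in 1 area. Log2 values were fitted with limma 3.58.1 (R 4.3.3; area and animal as terms, intensity trend, 6 residual and 6.98 prior degrees of freedom) on the 12 means, after 99 controls and probe sets with a mean below the median of 5.62 were left out. Benjamini-Hochberg adjustment covered all tested probe sets, and tests were two-sided. Samples of 1 animal pair across areas: with area means removed, the 18 pairs of 1 animal correlated at 0.207 to 0.85, and the 36 pairs of different animals and areas at -0.561 to 0.0654. Deviations from an area mean cancel out over the 3 animals. Positive correlations within animals thus bring negative ones between animals, which are no separate evidence of pairing. Precision is limited by having 3 animals. The code was tested on simulated data.

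Gene symbols came from the platform annotation and matched a RefSeq entry for 24616 of the 24956 probe sets with 1 symbol. A further 361 have several symbols and 27449 none. Genes were named by rule. In each direction these were the genes past the threshold with the same sign in 3 animals. Where fewer than 5 passed, the 8 with the smallest p among genes with the same sign in 3 animals were taken. Added to these were the 4 each way with the smallest p for a peak or dip, up to 3 per list, and 19 fixed names. Of the fixed names EGR1 has no probe set naming it here. The members, lists and tests were chosen with earlier results of these data known. Probe sequences were not used here.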

Additional observations from a re-analysis of the deposited data

Results flagged for a closer look

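A single array lay far from the other arrays of its area, by Dixon's criterion, in 15 of 400 groups of 6 arrays tested among the named genes. Chance marks about 1 in 20 such groups. Of the called transcripts, DIAPH3 measured 5.51 in right M1 of animal 2, where the other 5 arrays gave 6.25 to 6.62. KLK5 measured 7.15 in left M1 of animal 3 against 7.32 to 7.42, and MmuSTS.2840.1.S1_at 6.80 in right PMv of animal 2 against 7.001 to 7.11.

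In A46 the arrays in question were the left of animal 1 for GRIA4 (9.16 against 8.71 to 8.87) and TYROBP (7.19 against 7.12 to 7.14), the left of animal 2 for COX7B (10.26 against 10.46 to 10.52) and GAD1 (11.10 against 11.28 to 11.34), the right of animal 1 for LOC713582 (5.56 against 5.88 to 6.06) and the right of animal 2 for SLC8A1 (6.49 against 7.28 to 7.50). In PMd they were the right of animal 3 for MBP (12.97 against 13.33 to 13.48) and RFTN2 (7.78 against 8.38 to 8.57), the left of animal 2 for GJB6 (8.39 against 8.80 to 8.90) and the right of animal 2 for IGFBP2 (8.49 against 8.21 to 8.30). SLIT2 measured 8.05 in left PMv of animal 2 (8.16 to 8.20 elsewhere in PMv), and FEZF2 8.89 in left M1 of animal 2 (8.49 to 8.57 elsewhere in M1). All values are log2 intensities.

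Both premotor areas differed from each other in the limma fit for DIAPH3 (PMd minus PMv 0.89, adjusted p = 0.0119, higher in 3 of 3 animals) and for FOS (0.80, adjusted p = 0.0307, higher in 3 of 3).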

How the results depend on the processing

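The 8 called probe sets kept their direction, with an unadjusted p under 0.05, under every setting in which they were tested. Their number depended on the setting. The pairing by animal mattered: with no replicate block 0 probe sets passed (235 higher and 319 lower at an unadjusted p under 0.05), and 0 for PMd alone. Leaving out 1 animal gave 0 to 2003 departures, 0 to 1 peaks or dips, 1 to 33 for PMd and 0 to 5216 for PMv. A stricter intensity filter gave 5 (1 for PMd), with 3 of the 8, DIAPH3 among them, under that filter. Median centring gave 2, the actin covariate 2, the left hemisphere alone 0 (317 higher and 1262 lower unadjusted), and all 24 arrays with a random block 14, with 1 peak. Over its alternatives PMd minus PMv ranged from 0.67 to 0.92 for FOS and passed in 8 of 18, and from 0.77 to 0.96 for DIAPH3, passing in 13 of 17.

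Small departures turned sign, none of them past the threshold either way. On left arrays these were ALAS2 (-0.013), CUX2 (-0.00167), HBB (0.040) and SLC2A1 (-0.013). On right arrays they were HBM (-0.037), RFTN2 (-0.045), SCN1A (0.00662), SPP1 (-0.039) and UGT8 (-0.023). Leaving out 1 animal gave ranges of -0.16 to 0.023 for FOS, -0.041 to 0.074 for GABRB1, -0.091 to 0.033 for GAP43, -0.028 to 0.026 for HBB, -0.00684 to 0.048 for HBM, -0.00461 to 0.13 for NEFH, -0.074 to 0.20 for RFTN2, -0.11 to 0.046 for SCN1A and -0.050 to 0.16 for SPP1. Quantile normalization gave 0.00518 for GAP43 and 0.00865 for HBB, and the actin covariate 0.00663 for HBB. With the spread covariate GAP43 was 0.035, HBM -0.027 and SCN1A 0.050. Without the array furthest from the others HBB was 0.00592 and SCN1A 0.010, and without both, GAP43 was 0.028 and SCN1A 0.073. The cause of these changes was not tested. The omission of arrays and the recounts of lists by animal, hemisphere and scaling were chosen after seeing the data.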

Other observations

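Receptor and channel genes lay on both sides of the midpoint in premotor cortex, and none passed. GRIN1, the obligatory subunit of NMDA receptors, had a departure of -0.30 (SE 0.12, limma adjusted p = 0.726), below the midpoint in 2 of 3 animals. Without animal 3 it was -0.48 (adjusted p = 0.00382). CAMK2A, a kinase of excitatory synapses, was at -0.21 (SE 0.10). GRIA4, an AMPA receptor subunit, was at 0.13 (SE 0.05), GABRA2 and GABRA3, subunits of GABA receptors, at -0.17 and 0.11, and CHRNA7, a nicotinic receptor, at -0.15 (SE 0.06). A second, dimmer GRIA4 probe set was at -0.06. All 6 measured channel genes of fast-firing neurons were below the midpoint, from -0.15 for SCN8A to -0.01 for KCNAB1. All 6 were so in animal 1, but 3 in animal 2 and 2 in animal 3, and after quantile normalization 5 were. Of all 10043 genes 5991, 5059 and 4750 were below it in animals 1 to 3, and 4410 after quantile normalization.

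Among interneuron genes, TAC3, which encodes the neuropeptide neurokinin B, was the furthest from the midpoint, at 0.18 (SE 0.05, limma adjusted p = 0.726) and above it in 3 of 3 animals, and VIP was at -0.11 (SE 0.06), below it in 3 of 3. BDNF, a neuronal growth factor, was at 0.11 (SE 0.08) and NRN1, or neuritin, at -0.14 (SE 0.06). Layer 5 and subcortical projection markers were below the midpoint in 7 of 11 cases over all animals, 7 and 8 of 11 in animals 1 and 2 and 2 of 11 in animal 3. Of all 10043 genes 5531 were below it over all animals, and 5991, 5059 and 4750 in animals 1 to 3.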
